A study of Mus musculus with 9 samples.

Results

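The endothelial and lung capillary genes described here are 48 mouse genes, found on the array through 60 probes whose RefSeq accessions belong to them, of 22909 named genes and 56601 probes tested in all. They are 5 genes of lung capillaries (*Car4*, *Apln*, *Aplnr*, *Gpihbp1* and *Plvap*) and 43 genes used as markers of blood endothelium, some of which belong mainly to 1 vessel type or are shared with other cells. Each gene was represented by its brightest probe, judged by the mean log2 signal across the 9 arrays, so that the choice of probes used no comparison between groups. Each of the 48 was well above background on 9 of 9 arrays, and no filter on low values was applied.

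The arrays were made from unsorted tissue of part of the left lung of male mice of 8 to 12 weeks, harvested 21 days after surgery. They follow gene expression in a mouse model of obliterative bronchiolitis (OB), the scarring of small airways that limits survival of lung grafts. In the OB and non-OB groups the left lung of a C57BL/10 donor was transplanted into a C57BL/6 recipient, a pair mismatched only at minor histocompatibility antigens, and histology of the graft showed OB or no OB. Sham mice had a thoracotomy and no transplant. The labels give the same donor and recipient strains for all 9 samples, whereas the study's supplement assigns C57BL/10 to sham 1 and C57BL/6 to the other sham lungs. Each group had n = 3 arrays with 1 lung on each. One part of each lung was taken for RNA and the other for histology, and no gene was altered in any group. Mice were operated on under isoflurane, and buprenorphine, an opioid against pain, was given after surgery and over the next days.

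Endothelial cells line the vessels, and those of the lung capillaries form most of the surface across which gas passes from air to blood. They are kept in number and identity by growth factors that act on receptor kinases (VEGF on KDR and FLT1, angiopoietins on TEK, BMP9 on the ALK1 receptor with endoglin) and by transcription factors of the ETS, SOX and KLF families. The lung holds general capillary cells, which can divide and carry the apelin receptor, and aerocytes, large capillary cells that make apelin and carbonic anhydrase 4. In whole lung tissue, fewer endothelial cells and less RNA of a gene per cell cannot be told apart.

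Values are log2 of the spot intensity after each array was scaled to a trimmed mean of 2500, and a change is the difference between 2 group means on that scale from limma, with its standard error (SE). A probe was called against sham when its adjusted p was under 0.05 and its change at least 2-fold. The arrays had 58.6 to 69.6% of spots well above background and 0 saturated spots. The lung genes *Sftpc*, *Sftpb*, Scgb1a1 and *Ager* and the endothelial genes *Cdh5*, *Pecam1*, *Tie1*, *Erg* and *Esam* were well above background on all 9 arrays.

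In OB grafts, 31 of the 48 genes (64.6%) were called lower than in sham lungs and 1 gene, *Procr*, was called higher, whereas 2.43% of all tested probes were called lower and 2.72% higher. The median change of the 48 genes was -1.42 on the log2 scale, a 2.67-fold lower intensity, and the median over all probes was 0.08. The changes ran from -2.82 for *Tmem100* to 2.05 for *Procr*, and 46 of the 48 were below 0. The 3 OB arrays lay below all 3 sham arrays for 40 of the genes, against 16.2% of all probes, and above them for 1, against 20.0%. At an unadjusted p under 0.05, 42 genes were lower and 1 higher, against 11.2% and 8.55% of all probes. The median over the 48 genes of the difference from the sham mean was -1.28, -1.34 and -1.38 on OB 1, OB 2 and OB 3, while single genes spread more widely between the OB lungs, up to 1.71 log2 units for *Hpgd*.

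**Figure D1:**
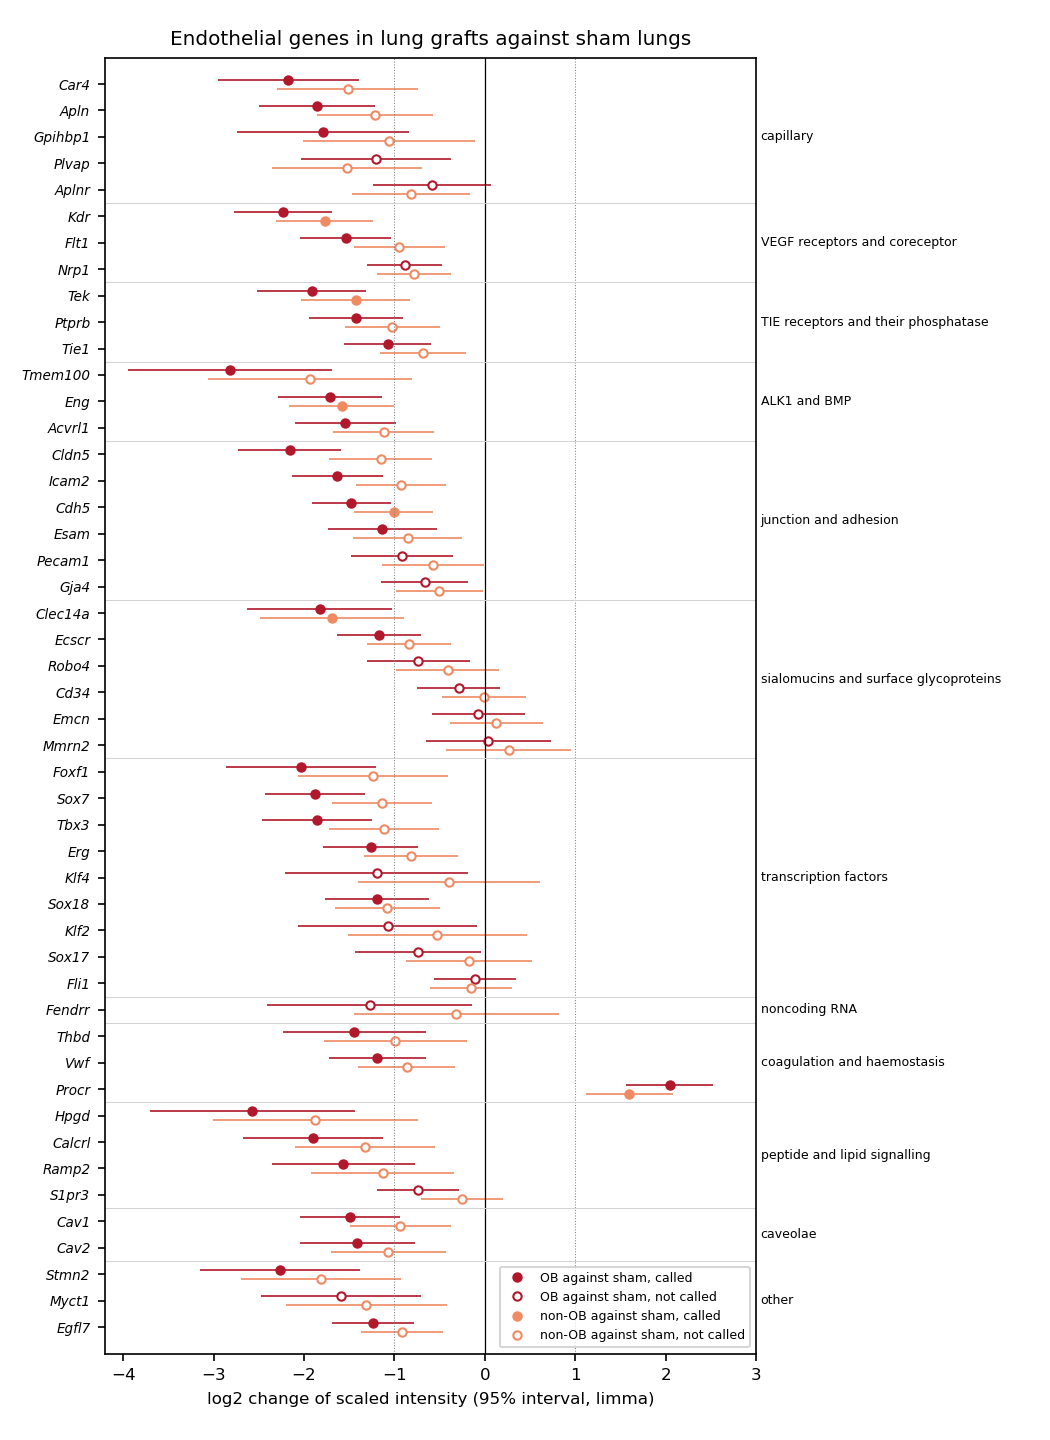
Change of each of the 48 genes against sham lungs on the log2 scale of scaled intensity (x axis), for OB grafts in red and non-OB grafts in orange. Points are limma estimates, lines their 95% intervals, and filled points are called (adjusted p under 0.05 and at least 2-fold, the dotted lines). Of the OB points 31 are filled to the left of 0 and only that of *Procr* is filled to the right, while 5 non-OB points are filled to the left.

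Of the 5 capillary genes, *Car4*, *Apln* and *Gpihbp1* fell in OB grafts, and *Aplnr* and *Plvap* did not pass the test. The median change of the 5 was -1.79, beside -1.41 for the other 43 genes. For 4 of the 5 the OB arrays lay below all sham arrays, against 16.2% of all probes. The log2 intensity of *Car4*, the membrane-bound carbonic anhydrase of aerocytes, was 9.70, 9.21 and 9.50 in OB 1 to 3, 10.40, 10.64 and 9.35 in non-OB 1 to 3, and 11.88, 11.47 and 11.59 in sham 1 to 3. Every OB array was at least 1.77 below the lowest sham array, and non-OB 3 was as low as the OB arrays. *Car4* fell 4.51-fold in OB, a change of -2.17 (SE 0.34, adjusted p = 0.0109).

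*Apln*, the ligand apelin, was measured at 9.38, 10.41 and 9.84 in OB 1 to 3, 10.40, 10.85 and 10.32 in non-OB 1 to 3, and 11.73, 11.68 and 11.80 in sham 1 to 3. Its sham arrays lay within 0.12 of each other, and all 6 grafts were below them. The OB change was -1.86 (SE 0.28, adjusted p = 0.00955). *Gpihbp1*, which carries lipoprotein lipase to the capillary lumen, read 13.45, 12.17 and 12.05 in OB 1 to 3, 13.63, 13.15 and 13.07 in non-OB 1 to 3, and 14.88, 14.07 and 14.08 in sham 1 to 3. OB 1 was more than 1 log2 unit above OB 2 and OB 3, and sham 1 stood above the other sham arrays by 0.80. The change of *Gpihbp1* was -1.79 (SE 0.41, adjusted p = 0.0447), and its call was lost when any 1 of 8 arrays was left out, the exception being OB 1.

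*Aplnr*, the apelin receptor of general capillary cells, had values of 8.68, 9.58 and 8.91 in OB 1 to 3, 8.63, 8.92 and 8.94 in non-OB 1 to 3, and 9.32, 9.99 and 9.63 in sham 1 to 3. OB 2 was above sham 1, so that OB and sham arrays overlapped, and the change was -0.58 (SE 0.28, adjusted p = 0.308) with an interval of -1.24 to 0.07. For *Plvap*, the protein of endothelial diaphragms, the arrays gave 13.000, 14.21 and 13.64 in OB 1 to 3, 13.56, 13.61 and 12.73 in non-OB 1 to 3, and 15.09, 14.65 and 14.72 in sham 1 to 3. All grafts were below all sham arrays, but the OB lungs spread over 1.21 log2 units and the change was -1.21 (SE 0.36, adjusted p = 0.102). Each of the 5 genes was also expressed as its difference from its sham mean minus the median of the same quantity over the other 43 genes on that array, a value that averaged -0.012 in sham lungs. In OB it was -0.85 ± 0.20 for *Car4*, -0.54 ± 0.57 for *Apln*, -0.47 ± 0.71 for *Gpihbp1*, 0.11 ± 0.66 for *Plvap* and 0.74 ± 0.51 for *Aplnr* (SD, n = 3). In non-OB the corresponding values were -0.56 ± 0.66, -0.26 ± 0.15, -0.10 ± 0.53, -0.57 ± 0.52 and 0.14 ± 0.18. This difference among the capillary genes was not tested.

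**Figure D2:**
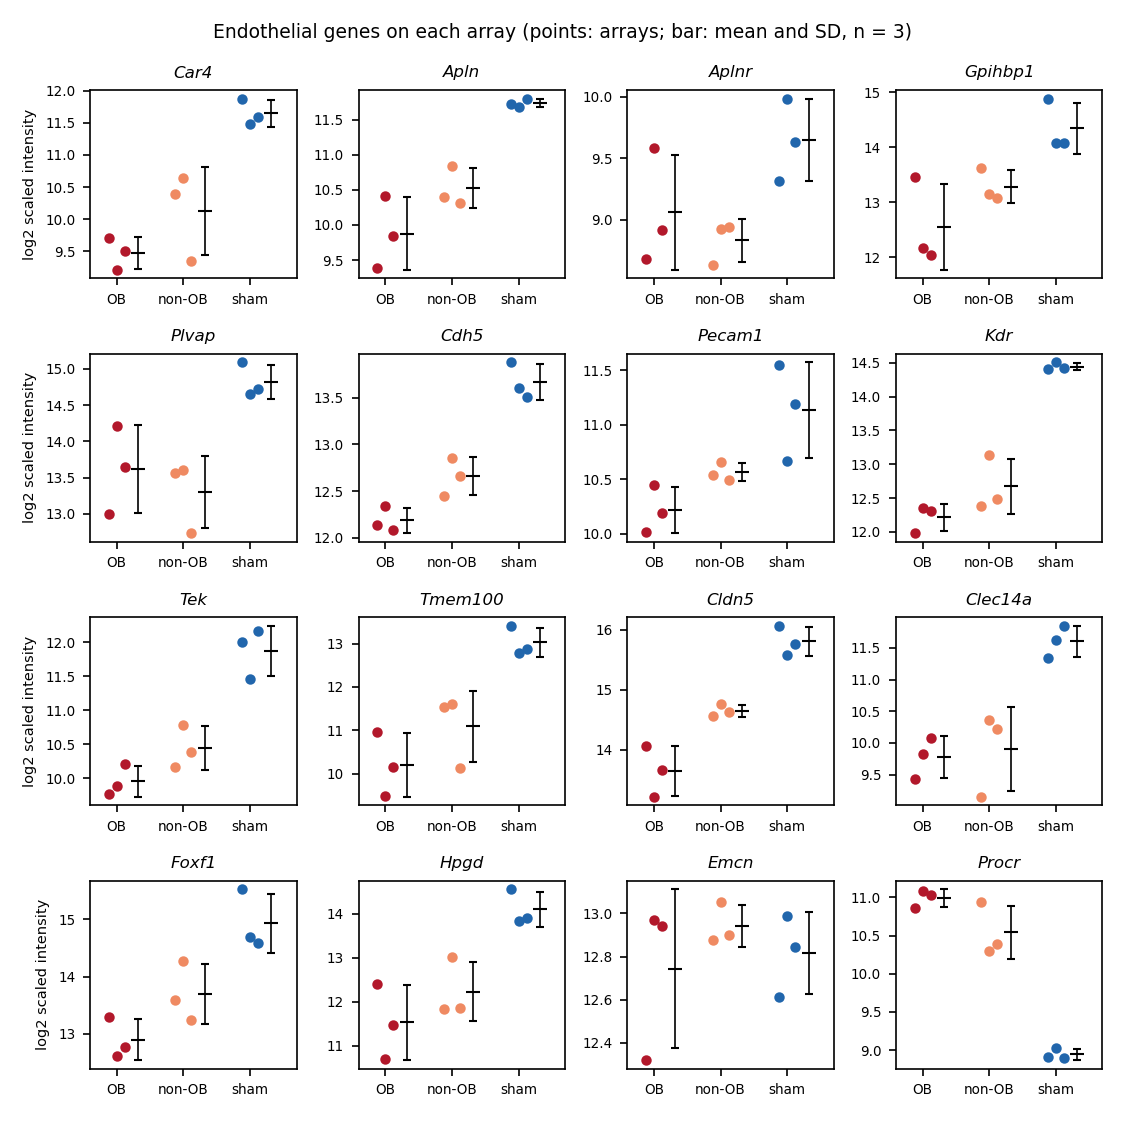
Log2 scaled intensity (y axis, a separate range for each gene) of 16 of the genes on the 3 OB, 3 non-OB and 3 sham arrays. Points are arrays, and the bar beside them is the mean and SD (n = 3). *Procr* is higher in all 6 grafts than in all 3 sham lungs, *Emcn* overlaps between all groups, and in *Kdr*, *Cdh5* and *Cldn5* the order of the groups is OB, non-OB, sham with no overlap.

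Both receptor kinases for VEGF fell in OB. *Kdr*, the main signalling receptor for VEGF-A, was 11.98, 12.35 and 12.31 in OB 1 to 3, 12.39, 13.14 and 12.49 in non-OB 1 to 3, and 14.40, 14.51 and 14.42 in sham 1 to 3. Its 3 sham arrays lay within 0.11 of each other and more than 2 log2 units above the OB arrays. The 4.69-fold fall, -2.23 (SE 0.23, adjusted p = 0.003), kept its call without any 1 array. *Flt1*, which binds VEGF-A with high affinity and holds it back from KDR, changed by -1.54 (SE 0.22, adjusted p = 0.00806). *Nrp1*, a coreceptor that neurons and other cells also make, was at -0.89 (SE 0.18, adjusted p = 0.0278), past the adjusted p but under the 2-fold limit.

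All 3 genes of the angiopoietin receptor system were called lower. *Tek*, the TIE2 receptor that keeps resting vessels stable, stood at 9.77, 9.89 and 10.21 in OB 1 to 3, 10.16, 10.79 and 10.38 in non-OB 1 to 3, and 11.997, 11.45 and 12.17 in sham 1 to 3. Each graft was below each sham array by at least 0.67, and the change in OB was -1.92 (SE 0.26, adjusted p = 0.00696). *Ptprb*, the phosphatase that switches TIE2 off, changed by -1.42 (adjusted p = 0.012), and *Tie1*, the partner receptor of TIE2, by -1.07 (adjusted p = 0.0245).

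The receptor arm for BMP9 and BMP10 was called lower as well. *Tmem100*, which in the endothelium is induced through ALK1, had the lowest change of the 48 genes, and its log2 intensity was 10.96, 9.49 and 10.17 in OB 1 to 3, 11.54, 11.60 and 10.14 in non-OB 1 to 3, and 13.42, 12.78 and 12.88 in sham 1 to 3. OB and sham arrays were separated by 1.82 log2 units at the least, and non-OB 3 was as low as the OB lungs. *Tmem100* fell 7.07-fold, -2.82 (SE 0.49, adjusted p = 0.0162). *Acvrl1*, which encodes ALK1, changed by -1.54 (adjusted p = 0.0113), and *Eng*, its coreceptor endoglin, changed by -1.71 (adjusted p = 0.00895). A second probe of *Acvrl1* gave -1.79 (adjusted p = 0.00439).

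Of the 6 junction and adhesion genes 4 were called lower. *Cdh5*, the cadherin that holds endothelial cells to each other and the usual marker of the cell type, was 12.13, 12.34 and 12.09 in OB 1 to 3, 12.45, 12.86 and 12.67 in non-OB 1 to 3, and 13.88, 13.61 and 13.51 in sham 1 to 3. The groups did not overlap, with OB lowest and sham highest, and the OB change was -1.48 (SE 0.19, adjusted p = 0.00573). For *Pecam1*, the adhesion protein CD31 that platelets and leukocytes also carry, the values were 10.02, 10.44 and 10.19 in OB 1 to 3, 10.54, 10.66 and 10.50 in non-OB 1 to 3, and 11.54, 10.67 and 11.19 in sham 1 to 3. The sham arrays spread over 0.87 log2 units, sham 2 was only 0.23 above the highest OB array, and the change of -0.92 (SE 0.25, adjusted p = 0.0736) was not called. *Cldn5*, the tight junction claudin of endothelium, read 14.06, 13.22 and 13.67 in OB 1 to 3, 14.56, 14.76 and 14.63 in non-OB 1 to 3, and 16.07, 15.58 and 15.77 in sham 1 to 3. Here too the 3 groups did not overlap, and *Cldn5* fell 4.46-fold in OB (-2.16 (SE 0.25, adjusted p = 0.00398)). *Icam2*, which guides leukocytes across resting endothelium, changed by -1.63 (adjusted p = 0.0065) and *Esam*, a junction adhesion molecule shared with platelets, by -1.13 (adjusted p = 0.0441). *Gja4*, a connexin of arterial endothelium, was at -0.66 (SE 0.21, adjusted p = 0.12).

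Of the 6 surface glycoproteins 2 were called lower. *Clec14a*, a lectin-like protein of vessel sprouts, was measured at 9.43, 9.82 and 10.08 in OB 1 to 3, 9.15, 10.37 and 10.21 in non-OB 1 to 3, and 11.34, 11.62 and 11.84 in sham 1 to 3, with non-OB 1 the lowest of all arrays and all sham arrays above all grafts. Its OB change was -1.83 (SE 0.35, adjusted p = 0.023), and *Ecscr*, an endothelial chemotaxis receptor, changed by -1.17 (adjusted p = 0.0158). *Emcn*, the sialomucin endomucin of capillaries and veins, did not pass the test, with values of 12.32, 12.97 and 12.94 in OB 1 to 3, 12.88, 13.05 and 12.90 in non-OB 1 to 3, and 12.61, 12.99 and 12.85 in sham 1 to 3. All 3 groups overlapped, and the difference of -0.07 (SE 0.22, adjusted p = 0.876) had an interval of -0.59 to 0.44, which holds neither a 2-fold fall nor a 2-fold rise. *Cd34*, a sialomucin that stem cells and fibroblasts also carry, was at -0.29 (SE 0.20, adjusted p = 0.428) with an interval of -0.75 to 0.17. *Mmrn2*, a matrix protein that binds CLEC14A, was at 0.04 (SE 0.30, adjusted p = 0.951) with an interval of -0.65 to 0.73, and *Robo4*, a guidance receptor that keeps vessels tight, at -0.74 (SE 0.25, adjusted p = 0.141). The sign of *Emcn* in OB turned under quantile normalization and that of *Mmrn2* with a slide term, so no direction is given for either.

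Among the 9 transcription factors 5 were called lower. *Foxf1*, needed for lung capillaries and also made by lung fibroblasts, had log2 intensities of 13.30, 12.62 and 12.78 in OB 1 to 3, 13.59, 14.27 and 13.24 in non-OB 1 to 3, and 15.53, 14.69 and 14.58 in sham 1 to 3. All grafts were below all sham arrays, sham 1 stood 0.84 above the next sham lung, and the OB change was -2.03 (SE 0.36, adjusted p = 0.0176). The SOX group, which acts in vessel formation, included *Sox7* at -1.88 (SE 0.24, adjusted p = 0.00568) and *Sox18* at -1.20 (adjusted p = 0.0317), and *Sox17*, used mainly in arteries, at -0.74 (adjusted p = 0.229). *Tbx3*, a T-box factor, changed by -1.86 (adjusted p = 0.00812). Of the ETS factors that switch on endothelial genes, *Erg* was called at -1.26 (SE 0.23, adjusted p = 0.0187) and *Fli1*, which leukocytes and platelets also make, was at -0.11 (SE 0.20, adjusted p = 0.771) with an interval of -0.56 to 0.34 and a sign that turned under quantile normalization. *Klf2* and *Klf4*, which respond to blood flow, were at -1.07 (SE 0.43, adjusted p = 0.215) and -1.20 (SE 0.44, adjusted p = 0.179). Sham 1 was 0.84 above the next sham array for *Klf2* and 1.04 above it for *Klf4*. *Fendrr*, a long noncoding RNA transcribed beside *Foxf1*, was 12.04, 13.45 and 13.10 in OB 1 to 3, 13.63, 13.27 and 14.56 in non-OB 1 to 3, and 14.58, 13.44 and 14.38 in sham 1 to 3, so that sham 2 was no higher than OB 2, and the change of -1.27 (SE 0.49, adjusted p = 0.2) was not called.

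Promoter sequence from RefSeq (build GRCm38.p6) was at hand for 26 of the 48 genes, as 31 windows of the 250 bases before a gene's start. They were searched on both strands for core letters that members of these factor families bind. AGGAAG, the ETS type, was present in 14 of the 31 windows (45.2%) and in 29.5% of all 32851 windows. ACAATG, the SOX type, was present in 3 (9.7%, against 10.7%), and CCACCC, the KLF type, in 9 (29.0%, against 28.1%). A match is a string of letters and not a measured binding site. Of the 5 windows shown, those of *Kdr*, *Tie1* and *Apln* belong to genes that fell, that of *Emcn* to a gene with no called change and that of *Procr* to the gene that rose. They are given in the 5′ to 3′ direction of the gene, with the ETS and KLF letters of either strand in capitals, and no window of the 5 held the SOX letters.
*Kdr* (chr5:75978456-75978705, minus strand): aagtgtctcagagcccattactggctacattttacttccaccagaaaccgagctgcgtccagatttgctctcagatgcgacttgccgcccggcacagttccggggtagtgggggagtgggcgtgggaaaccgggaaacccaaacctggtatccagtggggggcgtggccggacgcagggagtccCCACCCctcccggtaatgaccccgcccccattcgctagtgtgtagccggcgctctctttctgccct
*Tie1* (chr4:118489850-118490099, minus strand): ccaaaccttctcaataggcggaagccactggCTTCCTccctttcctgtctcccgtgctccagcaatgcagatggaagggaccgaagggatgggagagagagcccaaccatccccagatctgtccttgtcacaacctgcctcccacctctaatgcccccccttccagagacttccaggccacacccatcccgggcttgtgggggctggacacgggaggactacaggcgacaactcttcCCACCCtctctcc
*Apln* (chrX:48034854-48035103, minus strand): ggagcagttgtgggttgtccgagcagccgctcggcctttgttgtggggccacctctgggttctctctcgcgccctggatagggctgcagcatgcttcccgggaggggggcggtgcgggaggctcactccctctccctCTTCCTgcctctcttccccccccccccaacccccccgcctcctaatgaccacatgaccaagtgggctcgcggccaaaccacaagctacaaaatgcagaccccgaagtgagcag
*Emcn* (chr3:137340828-137341077, plus strand): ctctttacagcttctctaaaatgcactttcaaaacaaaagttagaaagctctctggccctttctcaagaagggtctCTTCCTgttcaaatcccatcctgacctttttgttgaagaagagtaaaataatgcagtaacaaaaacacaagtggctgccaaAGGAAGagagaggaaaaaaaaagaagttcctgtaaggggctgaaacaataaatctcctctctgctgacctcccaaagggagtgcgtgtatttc
*Procr* (chr2:155750967-155751216, plus strand): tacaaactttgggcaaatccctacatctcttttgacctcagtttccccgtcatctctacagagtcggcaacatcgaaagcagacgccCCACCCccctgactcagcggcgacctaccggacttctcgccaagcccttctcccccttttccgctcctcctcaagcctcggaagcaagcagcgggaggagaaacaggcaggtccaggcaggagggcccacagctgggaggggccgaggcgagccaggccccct
The ETS letters began 113 bases before the start in *Apln*, 219 before it in *Tie1*, and 174 and 93 before it in *Emcn*. The KLF letters began 66 bases before the start in *Kdr*, 13 in *Tie1* and 163 in *Procr*. The *Emcn* window held 2 matches to the ETS letters and that of *Kdr* held none. Only this spelling of the ETS type was searched, and any relation of the matches to the changes was not tested.

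The 3 genes of blood clotting moved in opposite directions in OB. *Procr*, the endothelial receptor for protein C that some leukocytes and stem cells also carry, was 10.86, 11.09 and 11.03 in OB 1 to 3, 10.94, 10.30 and 10.39 in non-OB 1 to 3, and 8.91, 9.03 and 8.89 in sham 1 to 3. All 6 grafts were above all 3 sham arrays by at least 1.27, and *Procr* rose 4.13-fold, 2.05 (SE 0.21, adjusted p = 0.00279). *Thbd*, thrombomodulin, which with the *Procr* product activates protein C, changed by -1.44 (adjusted p = 0.0499). *Vwf*, the clotting protein von Willebrand factor that platelets also store, changed by -1.19 (adjusted p = 0.0251). The call of *Procr* was kept without any 1 array, whereas that of *Thbd* was lost without any 1 of 8 arrays, the exception being non-OB 2.

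Of the 4 genes of peptide and lipid signalling 3 fell. *Hpgd*, which breaks down prostaglandins and is also made in alveolar epithelium and macrophages, was 12.41, 10.70 and 11.49 in OB 1 to 3, 11.83, 13.01 and 11.85 in non-OB 1 to 3, and 14.56, 13.84 and 13.92 in sham 1 to 3. OB 1 lay 1.71 above OB 2, yet 1.43 below the lowest sham array, and *Hpgd* fell 5.95-fold (-2.57 (SE 0.49, adjusted p = 0.0234)). *Calcrl* and *Ramp2*, which together form the receptor for adrenomedullin, changed by -1.90 (adjusted p = 0.018) and -1.56 (adjusted p = 0.0377). *S1pr3*, a receptor for sphingosine 1-phosphate, was at -0.74 (SE 0.20, adjusted p = 0.0717). Both caveolae genes, which alveolar type 1 cells also express, were called lower. *Cav1*, the main coat protein of caveolae, read 9.95, 9.58 and 9.81 in OB 1 to 3, 10.07, 10.83 and 10.10 in non-OB 1 to 3, and 11.39, 11.19 and 11.22 in sham 1 to 3, with each graft below each sham array, and changed by -1.49 (SE 0.24, adjusted p = 0.0127). *Cav2*, its partner, changed by -1.41 (adjusted p = 0.0252). *Stmn2*, a microtubule regulator best known from neurons, was 11.92, 11.20 and 11.50 in OB 1 to 3, 12.08, 12.69 and 11.20 in non-OB 1 to 3, and 14.14, 13.68 and 13.59 in sham 1 to 3, and fell 4.81-fold (-2.27 (SE 0.39, adjusted p = 0.015)). *Egfl7*, secreted by endothelial cells, changed by -1.24 (adjusted p = 0.0116), and *Myct1*, a surface protein of endothelium, was at -1.59 (adjusted p = 0.052), just short of a call.

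Of the 48 genes 10 had further probes, 12 in all, and these were lower in OB for 12 of 12, with 6 called. Among all probes 45.3% were lower in OB and 2.43% were called lower. The further probes measure the same genes on the same arrays, so they are no separate support. The further probes of *Acvrl1*, *Ecscr*, *Tbx3*, *Ramp2* and *Cav1* were called, and those of *Nrp1*, *Cd34*, *Sox17* and *Fendrr* were not. Of the 2 further probes of *Cav2*, 1 was called and the other was at -1.42 (adjusted p = 0.135).

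In non-OB grafts, 5 of the 48 genes (10.4%) were called lower than in sham and 1, *Procr*, higher, where 0.71% of all probes were called lower and 1.81% higher. The 5 were *Kdr* at -1.77 (SE 0.23, adjusted p = 0.0106), *Tek* at -1.43 (SE 0.26, adjusted p = 0.0324), *Eng* at -1.58 (SE 0.25, adjusted p = 0.0203), *Cdh5* at -1.01 (SE 0.19, adjusted p = 0.0359) and *Clec14a* at -1.69 (SE 0.35, adjusted p = 0.0469). *Procr* rose by 1.60 (SE 0.21, adjusted p = 0.0103). The median change of the 48 genes was -0.97, with 45 below 0, and the median over all probes was 0.13. The non-OB arrays lay below all sham arrays for 38 genes, against 12.6% of all probes, and above them for 1, against 16.3%. At an unadjusted p under 0.05, 37 genes were lower and 1 higher, against 7.98% and 9.14%. Per array, the median difference of the 48 genes from the sham mean was -1.21, -0.68 and -1.05 on non-OB 1, 2 and 3, so non-OB 2 was nearest to sham.

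None of the 5 capillary genes was called in non-OB by limma, although 5 of 5 were lower at an unadjusted p under 0.05 and did not overlap with sham. The corresponding shares of all probes were 7.98% and 12.6%. Their changes were -1.52 (SE 0.34, adjusted p = 0.0633) for *Car4*, -1.21 (SE 0.28, adjusted p = 0.0684) for *Apln*, -1.06 (SE 0.41, adjusted p = 0.253) for *Gpihbp1*, -0.81 (SE 0.28, adjusted p = 0.202) for *Aplnr* and -1.52 (SE 0.36, adjusted p = 0.0746) for *Plvap*. For *Aplnr* and *Plvap* the estimate was further below 0 in non-OB than in OB. The changes in non-OB and OB grafts use the same 3 sham lungs, and so they are not independent of each other.

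Between OB and non-OB grafts no gene of the 48 and no probe in all (0.0%) was called by limma. OB was the lower group for 44 of the 48 genes, with a median difference of -0.44, beside -0.05 for all probes, of which 65.6% were lower in OB. At an unadjusted p under 0.05, 8 genes were lower in OB and 0 higher, against 1.4% and 0.542% of all probes. With the slide as a random block 19 were lower and 1 higher, against 3.1% of all probes lower. With the slide as a fixed block they were 8 and 0, against 2.4% lower. Without sham 2, whose array enters only the estimate of the spread, they were 5 and 0, against 1.2% lower. The OB arrays were all below the non-OB arrays for 9 genes, against 2.86% of all probes, and all above them for 0, against 1.09%. *Cldn5* had the lowest difference, -1.004 (SE 0.25, unadjusted p = 0.00356), followed among those 8 by *Sox7* at -0.74 (SE 0.24, unadjusted p = 0.0152), *Tbx3* at -0.74 (SE 0.26, unadjusted p = 0.0233) and *Icam2* at -0.70 (SE 0.22, unadjusted p = 0.0119). *Apln* was at -0.64 (SE 0.28, unadjusted p = 0.0495), *Flt1* at -0.59 (SE 0.22, unadjusted p = 0.0262), *S1pr3* at -0.49 (SE 0.20, unadjusted p = 0.0378) and *Cdh5* at -0.47 (SE 0.19, unadjusted p = 0.0381). Their adjusted p was at least 0.999981. The interval for *Procr*, -0.03 to 0.93, and that for *Car4*, -1.44 to 0.12, both held 0.

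Slides held OB and non-OB arrays in pairs (OB 1 with non-OB 1, OB 2 with non-OB 3, OB 3 with non-OB 2). Within these pairs 34, 38 and 45 of the 48 genes were lower in the OB lung, with median differences of -0.16, -0.43 and -0.70. Shares of all probes within the pairs were not computed. Over the group means 65.6% of all probes were lower in OB. OB was lower within all 3 pairs for 24 genes, *Cldn5* and *Cdh5* among them, and within 2 pairs for 21. The pairs disagreed widely for *Plvap*, from -0.56 on slide 1 to 1.48 on slide 2, and for *Hpgd*, from 0.58 on slide 1 to -1.52 on slide 3.

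**Figure D3:**
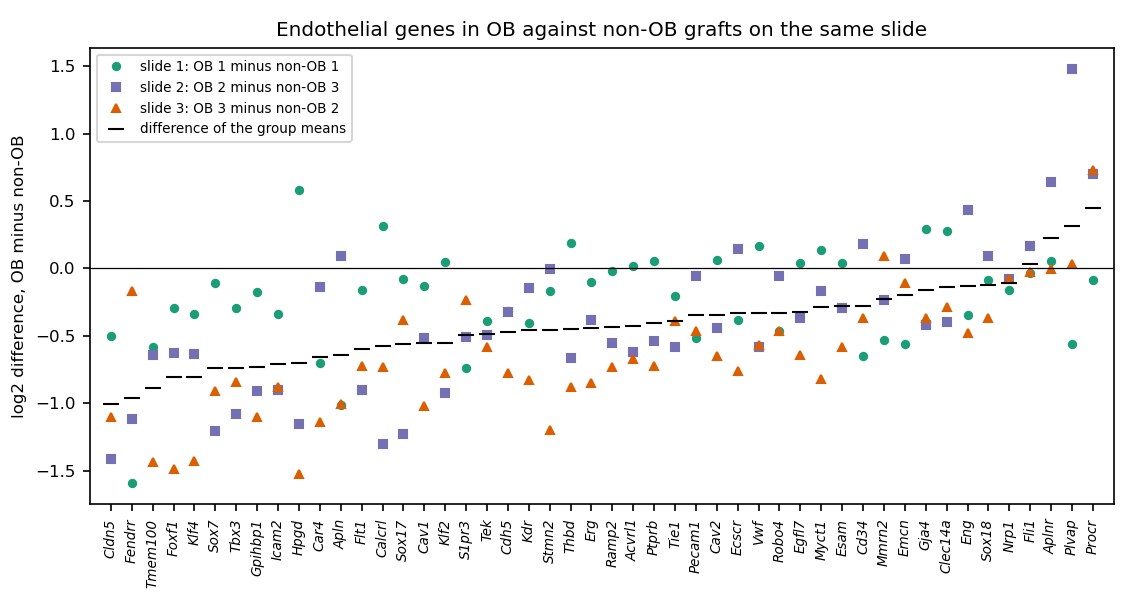
Difference of log2 scaled intensity between an OB and a non-OB array on the same slide (y axis) for each of the 48 genes (x axis, ordered by the difference of the group means, black bars). Circles, squares and triangles are the 3 slides. Most points lie below 0, with 34, 38 and 45 of 48 on the 3 slides. Over the group means 65.6% of all probes were also lower in OB.

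Other markers of the same cells and their signals were taken from lists apart from the 48 genes. These lists too were chosen with earlier results of these data known, so they are not independent support. For every list below, the shares of all probes called in OB were 2.43% lower and 2.72% higher. Which cells of the lung the listed transcripts came from was not tested, and the alveolar type 1 list below also fell in OB (median -1.15). Of 11 further genes listed for aerocytes 9 were called lower in OB, with a median of -1.72. They include *Rprml* at -2.84 (SE 0.30, adjusted p = 0.003), *Ednrb*, an endothelin receptor, at -2.41 (SE 0.40, adjusted p = 0.0138), *Cyp4b1*, a cytochrome, at -2.28 (SE 0.39, adjusted p = 0.0153) and *Prx*, periaxin, at -2.20 (SE 0.48, adjusted p = 0.0369). On 2 of the OB arrays *Rprml* was not well above background. Of 7 further genes of general capillary cells 4 were called lower (median -1.15), among them *Glp1r*, the receptor for GLP-1, at -2.24 (SE 0.32, adjusted p = 0.00837), *Sema3c* at -1.93 (SE 0.31, adjusted p = 0.0121), *Cd93* at -1.34 (SE 0.24, adjusted p = 0.0192) and *Itga1* at -1.15 (SE 0.19, adjusted p = 0.0131). In non-OB grafts 3 of the 11 and 0 of the 7 were called, with medians of -1.11 and -0.88, and at an unadjusted p under 0.05 the numbers were 8 and 6. Among all probes 0.71% were called lower in non-OB and 7.98% were lower at that unadjusted p.

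Arterial genes were called lower in 4 of 8 (median -1.60), *Efnb2* at -2.09 (SE 0.23, adjusted p = 0.00346), *Bmx* at -1.69 (SE 0.28, adjusted p = 0.0141), the Notch ligand gene *Dll4* at -1.65 (SE 0.26, adjusted p = 0.0114) and its target *Hey1* at -1.54 (SE 0.25, adjusted p = 0.0124), while *Gja5* was at -1.77 (SE 0.54, adjusted p = 0.104). Of 6 venous genes 1 was called lower and 1 higher. *Ackr1*, a chemokine-binding receptor of venules, read 9.84, 10.23 and 9.80 in OB 1 to 3, 8.94, 8.42 and 9.48 in non-OB 1 to 3, and 3.61, 4.997 and 5.67 in sham 1 to 3. Every graft was above every sham array by at least 2.74 log2 units, and *Ackr1* rose 36.7-fold, 5.20 (SE 0.51, adjusted p = 0.00245). One sham array was not well above background for *Ackr1*. *Slc6a2*, the noradrenaline transporter, changed by -2.71 (adjusted p = 0.0261). In the list of leukocyte adhesion, which shares *Ackr1* and *Selp* with the venous list, 2 of 8 were called higher, *Ackr1* and *Vcam1* at 1.25 (SE 0.21, adjusted p = 0.0132), and 1 lower, *Chst4* at -1.74 (SE 0.38, adjusted p = 0.0377), which was well above background on 1 OB array. None of 8 lymphatic genes was called in OB by limma (median 0.15), and the regulator *Prox1* was at 0.22 (SE 0.50, adjusted p = 0.826). At an unadjusted p under 0.05, 1 was lower and 0 higher, against 11.2% and 8.55% of all probes. The 1 lower gene was *Pdpn* at -0.53 (SE 0.16, adjusted p = 0.112), while 5 of the 8 estimates were above 0.

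Ligands and other parts of these pathways were also measured. Among all probes 2.43% were called lower in OB and 0.71% in non-OB. Of 9 measured ligands *Vegfa*, which acts on KDR, fell with -1.61 (SE 0.29, adjusted p = 0.0176) and *Angpt1*, which activates TIE2, with -1.12 (SE 0.25, adjusted p = 0.0369), and the other 7 were not called. In the BMP and ALK1 pathway 5 of 16 genes were called lower in OB (median -0.88) and 5 in non-OB (median -0.79). In OB 14 of the 16 estimates were below 0. *Id2* was not called, but for it every graft was above every sham array, by at least 0.28. *Smad6*, an inhibitory SMAD induced by BMP, was 9.49, 9.29 and 9.14 in OB 1 to 3, 9.87, 10.45 and 9.58 in non-OB 1 to 3, and 12.25, 11.59 and 11.72 in sham 1 to 3, and changed by -2.55 (SE 0.28, adjusted p = 0.00335) in OB and -1.89 (SE 0.28, adjusted p = 0.0157) in non-OB. *Bmp6*, a ligand, stood at -2.47 (SE 0.27, adjusted p = 0.00325) and -2.12 (SE 0.27, adjusted p = 0.0091), *Smad9*, a transducing SMAD, at -1.94 (SE 0.38, adjusted p = 0.0262) and -1.93 (SE 0.38, adjusted p = 0.0422), and *Bmpr2*, the partner receptor of ALK1, at -1.82 (SE 0.27, adjusted p = 0.00937) and -1.49 (SE 0.27, adjusted p = 0.0319). *Gdf2*, which encodes BMP9 and was well above background on 1 array of each graft group, was at -2.35 (SE 0.60, adjusted p = 0.064) in OB. Of 8 Notch genes 3 were called lower, *Nrarp* at -1.96 (SE 0.41, adjusted p = 0.0306), *Hes1* at -1.92 (SE 0.28, adjusted p = 0.00829) and *Notch4* at -1.47 (SE 0.29, adjusted p = 0.0255), and *Notch1* was at 0.39 (SE 0.71, adjusted p = 0.78). Of 8 endothelial enzymes and tone genes 3 were called lower, *Lipg* at -1.84 (SE 0.28, adjusted p = 0.0101), *Adgrf5* at -1.63 (SE 0.28, adjusted p = 0.0162) and *Ace*, the angiotensin-converting enzyme, at -1.39 (SE 0.28, adjusted p = 0.0271), whereas *Nos3*, the endothelial nitric oxide synthase, was at -0.53 (SE 0.21, adjusted p = 0.216). In this list 7 of the 8 estimates in OB were below 0. *Vwa1* went the other way, at 1.47 in OB, and was not called. Every graft was above every sham array for *Vwa1*, by at least 0.25.

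Markers of other cells moved on the same arrays, and their part in the endothelial changes was not tested. Among all probes 2.72% were called higher in OB. Leukocyte genes were called higher in 5 of 7 in OB (median 2.01), with *Ptprc*, the pan-leukocyte antigen CD45, at 1.35 (SE 0.27, adjusted p = 0.0273), *Cd68* at 2.29 (SE 0.19, adjusted p = 0.00153), *Itgax* at 2.20 (SE 0.17, adjusted p = 0.00132), *Cd3e* at 2.06 (SE 0.23, adjusted p = 0.00335) and *Adgre1* at 2.01 (SE 0.29, adjusted p = 0.00812). The summed intensity of the 7 was 26806 to 30420 in sham, 57824 to 76837 in non-OB and 66371 to 83046 in OB, beside 994030 to 1292100, 519440 to 678270 and 401870 to 462220 for the 48 endothelial genes. Alveolar type 2 genes, which are not endothelial, had a median change of -0.0044 in OB, with 0 of 7 called by limma and 0 at an unadjusted p under 0.05, and *Sftpc* was at 0.14 (SE 0.19, adjusted p = 0.685). Their summed intensity was 704650 to 764220 in sham and 747750 to 908870 in OB.

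The lists of other resident cells differed in how many genes were called. Among all probes 2.43% were called lower and 2.72% higher in OB, and 1.81% were called higher in non-OB. Of 6 alveolar type 1 genes measured 3 were called lower in OB (median -1.15), *Hopx* at -1.82, *Igfbp2* at -1.80 and *Clic5* at -1.20, while *Ager* was at -0.73 (SE 0.18, adjusted p = 0.0533). Of 7 smooth muscle genes 6 were called lower (median -1.55), with *Cnn1* at -3.14, *Lmod1* at -1.59, *Myh11* at -1.55 and *Acta2* at -1.64, and of 9 pericyte genes 3 (median -0.73), *Lamc3*, *Higd1b* and *Trpc6*, while *Pdgfrb* was at -0.56 (SE 0.34, adjusted p = 0.375). Of 8 fibroblast genes 2 were called lower, *Npnt* at -1.06 (SE 0.22, adjusted p = 0.0296) and *Pdgfra* at -1.02 (SE 0.23, adjusted p = 0.0424), and none higher, although 5 had estimates above 0 and the median was 0.54, with *Col1a1*, a collagen gene, at 0.96 (SE 0.63, adjusted p = 0.397). The median of the fibroblast genes differed from the sham mean by 0.55, 1.19 and -0.20 on OB 1, OB 2 and OB 3, so the OB lungs lay on both sides of sham. Of 5 platelet genes 4 were called lower (median -2.51), *Gp1ba* at -3.05, *Ppbp* at -2.89, *Gp9* at -2.51 and *Itga2b* at -2.15, and *Pf4* was not called at -0.54. The summed intensity of the platelet genes was 3611 to 4869 in OB and 8122 to 9543 in sham. Platelets also carry *Pecam1*, *Vwf*, *Esam* and *Fli1* transcripts, but their part in the changes of those genes was not tested. Of 3 erythroid genes measured, which mark red cells and their precursors, *Alas2* was called lower at -2.61 (SE 0.50, adjusted p = 0.0238), while *Slc4a1* was at -2.59 (SE 0.70, adjusted p = 0.0759) and *Hba-a1*, a haemoglobin chain, at -0.51 (SE 0.29, adjusted p = 0.372). Their median differed from the sham mean by -1.24, -3.72 and -2.15 on OB 1, OB 2 and OB 3 and by -1.55, -0.72 and -1.56 on the non-OB arrays. All 6 proliferation genes were called higher in both graft groups, with medians of 2.63 in OB and 2.51 in non-OB, and the OB changes included *Cdk1* at 2.86, *Top2a* at 2.85, *Birc5* at 2.66 and *Mki67* at 2.60.

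**Figure D4:**
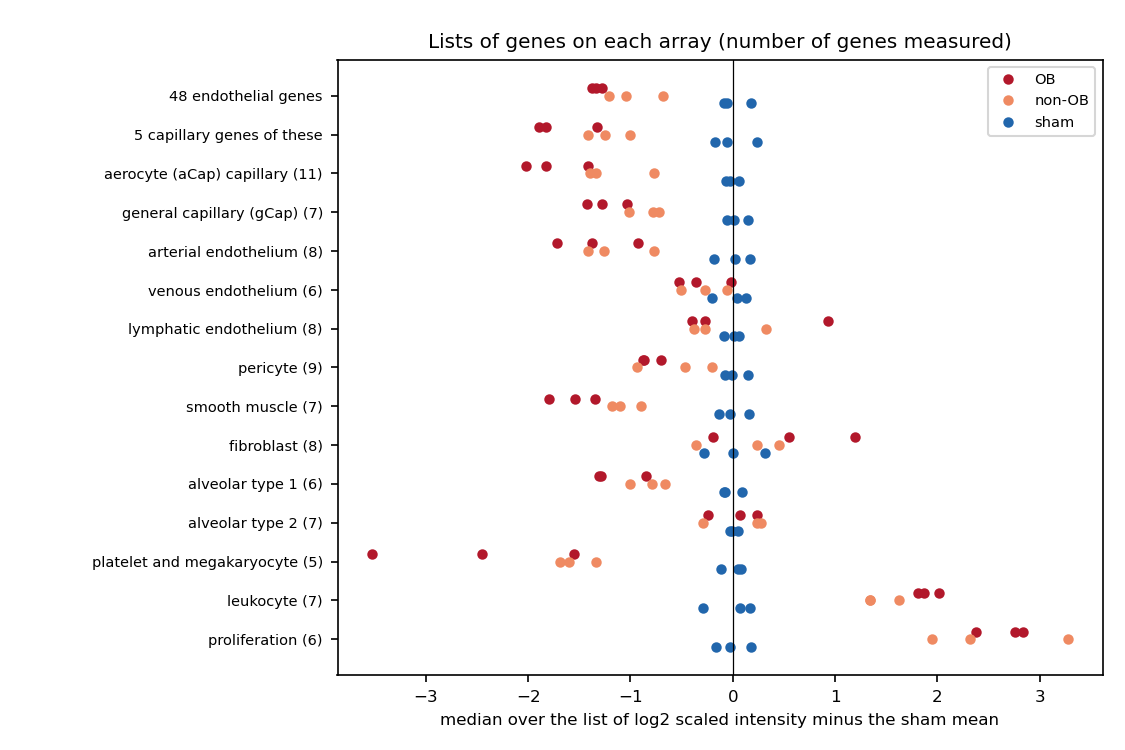
Median over each list of genes of the log2 scaled intensity minus the sham mean (x axis), on each OB, non-OB and sham array, with the number of genes measured in parentheses. The 48 endothelial genes lie between -1.38 and -1.28 in OB and between -1.21 and -0.68 in non-OB, arterial, aerocyte and smooth muscle lists lie on the same side, alveolar type 2 genes lie around 0, and leukocyte and proliferation genes lie above it.

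The slides and the small groups limit the calls. The sham 3 array and the graft arrays of slides 2 and 3 lay on slides that held no array of the other kind, so only slide 1 (OB 1, non-OB 1, sham 1 and sham 2) compares a graft with sham directly. There, 47 of the 48 genes were lower in OB 1 than in the mean of the 2 sham arrays (median -1.35). In non-OB 1, 45 were lower (median -1.27). All 31 called genes were at least 2-fold lower in OB 1, but these arrays also entered the fit that called them. This is therefore no separate support, and the share of all probes on slide 1 was not computed. With the slide as a fixed term in the fit 0 of the 48 genes were called in either comparison with sham by limma. Of all probes 4 were called in OB. At an unadjusted p under 0.05, 39 genes in OB and 35 in non-OB were lower, against 12.5% and 8.9% of all probes. With the slide as a random block 32 genes were called lower in OB and 18 in non-OB. In either direction 4144 and 2385 of the 56601 probes were then called, against 2915 and 1429 in the main fit. At an unadjusted p under 0.05, 43 and 37 genes were lower, against 15.3% and 11.7% of all probes. The number called lower in OB was 12 without sham 1, 11 without sham 2 and 18 without sham 3. It was 18 without OB 2 and 15 without OB 3. The number lower at an unadjusted p under 0.05 was 38 to 40 without any 1 sham array, against 8.6% to 9.2% of all probes. Calls of *Car4*, *Apln*, *Kdr*, *Flt1*, *Tek*, *Eng*, *Cdh5*, *Cldn5*, *Icam2*, *Sox7*, *Tbx3* and *Procr* in OB were kept without any 1 array, and the other 20 were each lost without at least 1. In non-OB grafts the number called lower was 1 without sham 1, sham 3, non-OB 1 or non-OB 3. It was 2 without OB 3, 9 without non-OB 2, and 0 without sham 2. Without sham 2 *Procr* also lost its call, and 36 genes were lower at an unadjusted p under 0.05, against 5.5% of all probes.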

How the data were processed

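Total RNA of 9 lungs (3 OB, 3 non-OB and 3 sham, grouped by the sample labels) was labelled with 1 dye and hybridised to 1 Agilent array each. The authors extracted the spots with Agilent Feature Extraction 12.0.3.1, which subtracts background, and deposited the processed signal intensity of each spot together with a value table of scaled intensities. Scaling each array to a mean of 2500 after trimming 2% at each end gave the value table again, with a relative difference of at most 4.99e-10. Control spots (3671) and outlier spots (53 to 111) were removed from each array, log2 values of 300 probes present 10 times were averaged, and 4 probes with no unmarked spot on some array were dropped. Array number, not read depth, sets the precision, and the samples are separate lungs.

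Probes were named through RefSeq accessions (GRCm38.p6, 32991 probes of 22909 genes), and since the array design names another build, coordinates are given for RefSeq promoters only. Differences were tested with limma 3.58.1 (statmod 1.5.0) in R 4.3.3 using lmFit and eBayes with 1 mean per group on all 9 arrays, and Benjamini-Hochberg adjustment over all 56601 probes. The study's methods use a t-test, which was run as an alternative. Python 3.11.15 with pandas 2.3.3 and numpy 2.4.6 did the rest. Members, gene lists and tests were chosen with earlier results of these data known, and no list was tested as a set. Genes named with all values are the capillary genes, *Cdh5*, *Pecam1* and the largest change in each role group, and in other lists the called genes with the largest changes, at most 4, and the first gene. *Ackr1*, *Smad6* and *Emcn* values per array and *Slc4a1* were added after they were seen. The fit was run on simulated data that held no slide effect, so that run cannot show how slides affect the calls. Alternatives covered scaling, background correction, filter, spread, slide, replicate number, probe and leaving out each array.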

Additional observations from a re-analysis of the deposited data

How the results depend on the processing

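The median change of the 48 genes kept its sign and moved by less than the spread between arrays under every alternative, from -1.48 to -1.29 in OB against sham, from -1.06 to -0.87 in non-OB against sham and from -0.55 to -0.28 between OB and non-OB. Counts of calls depended on the processing. The number called lower in OB was 0 with the slide as a fixed block, 14 with the methods' t-test after Benjamini-Hochberg adjustment, 32 with the slide as a random block, and 11 to 30 when 1 array was left out, against 31, and the number called higher was 0 with the slide as a fixed block, against 1. In non-OB grafts, against 5, it was 11 with normexp and quantile normalization, 17 with a filter on dim probes, 19 with an intensity trend in the spread, 18 with the slide as a random block, 22 with the methods' t-test at an unadjusted p and 8 with the second probe of a gene. It was 2 with only the groups compared in the fit, 0 with the slide as a fixed block, 0 with the adjusted t-test and 0 to 9 with 1 array left out. *Procr* in non-OB was called in all of these except the fixed slide block, the adjusted t-test (each giving 0) and without sham 2 (0 to 1 over the left-out arrays). The t-test at an unadjusted p called 4 genes between OB and non-OB, beside 1012 of all 56601 probes. Against sham it called 4714 probes in OB and 3648 in non-OB, where the main fit called 2915 and 1429. Replicate numbers did not pair the samples: the deviations of same-numbered arrays correlated at -0.40 to 0.28 over 9 pairs (median 0.09), against -0.45 to 0.45 over 18 pairs with other numbers, and with the replicate block 25 genes were called lower in OB and 2 in non-OB.

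The genes that changed sign were not called in either direction. *Cd34* in non-OB became 0.014 when scaled to the 75th percentile, 0.055 with quantile normalization, 0.047 with normexp, 0.044 with the random slide block, 0.13 with the fixed one, 0.069 as the mean of its probes, 0.15 for the second probe and -0.15 to 0.14 with 1 array left out. *Emcn* in OB became 0.10 with quantile normalization, 0.028 with normexp and -0.18 to 0.14 with 1 array left out, and in non-OB -0.10 with the fixed slide block. *Fli1* in OB became 0.0047 with quantile normalization and 0.056 with normexp. *Mmrn2* became -0.48 in OB and -0.25 in non-OB with the fixed slide block, -0.20 in OB with the random block and -0.15 to 0.35 in OB with 1 array left out. *Fendrr* in non-OB was 0.012 for its second probe, and *Sox17* in non-OB -0.48 to 0.14 with 1 array left out. The causes were not tested. Quantile normalization moved the median change of all probes in non-OB from 0.13 to -0.02, while the median of the 48 genes was -0.97 and -0.98. Precision was limited by 3 lungs in each group, and the members' probes were all well above background.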
